A study of Homo sapiens with 6 samples.

Results

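Levels of the RAS paralogs HRAS, NRAS, RRAS, RRAS2 and MRAS, the RAF kinases ARAF and BRAF and the RAS inactivator NF1 were examined in mitotic human fibroblasts with and without induced oncogenic Ras. The 8 genes were found by their symbols among 63009 genes with 6 values each, from a set drawn up with earlier results of these data known, and all 8 were among the 13993 genes tested, those with a mean of at least 1 FPKM. FPKM counts fragments per length of transcript, scaled to the mapped fragments of the library, so levels of different genes can be set side by side. Between libraries it depends on that scaling. HRAS mRNA, counted together with any from the oncogenic HRAS construct, was the most abundant of the 8 in every library. It was higher in Ras-induced mitotic cells, at 1164 ± 20.3 FPKM in control and 1586 ± 227 FPKM in induced cells (SD, n = 3 libraries each). RRAS2 was lower, at 44.1 ± 8.28 FPKM and 29.0 ± 2.23 FPKM. The other 6 did not pass the test.

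The study asked how the multinucleate cells seen in oncogene-induced senescence arise, and profiled mitotic cells for changes that go with their mitotic defects. This senescence is a lasting arrest that normal cells enter when an oncogene is switched on. The cells were IMR90 ER:RAS (ERRAS) cells, diploid lung fibroblasts that a retrovirus had made to carry H-RasV12, an oncogenic form of HRAS, fused to an estrogen receptor domain that tamoxifen activates. The 3 induced libraries came from cells given tamoxifen for 4 days, at 100 nM by the labels and 100 ng/ml 4-hydroxytamoxifen by the methods, which do not match, and the 3 uninduced (control) libraries from cells of the same kind that received none. In both groups cells were arrested in mitosis with 1 µM dimethylenastron (DME), an inhibitor of the spindle motor Eg5, and the detached mitotic cells were collected for poly(A) RNA sequencing.

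Both groups carried the construct, so no library here shows IMR90 cells without it. Reads of the endogenous HRAS gene and of the construct cannot be told apart in a gene-level FPKM value, and neither can an effect of tamoxifen itself and one of Ras. A bulk value also does not separate fewer cells expressing a gene from less RNA per cell. The 8 fibroblast markers examined were all above 1 FPKM in every library, with a summed level of 4869 to 5524 FPKM in control and 3039 to 4281 FPKM in induced cells, and 4 of them were called lower in induced cells, where 6 lay below every control. The 7 markers of mitosis were likewise above 1 FPKM in every library, at a summed 1736 to 1796 FPKM in control and 1406 to 1566 FPKM in induced cells, with 4 called lower and all 7 below every control. Over all genes tested, 5.67% were called lower and 12.8% lay below every control. Of 10 markers of other cell types, 5 stayed under 1 FPKM in every library, and only KRT5 and CD68 were above it in all 6. The part of these differences in the results below was not tested.

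RAS proteins are small GTPases that switch between an active state bound to GTP and an inactive state bound to GDP. Exchange factors load them with GTP downstream of growth factor receptors, and GTPase-activating proteins such as NF1 (neurofibromin) speed up hydrolysis of the bound GTP. Active RAS recruits RAF kinases to the membrane, and these phosphorylate MEK, which phosphorylates ERK. HRAS and NRAS are close relatives that share most of their sequence outside the C-terminal tail, RRAS, RRAS2 (also called TC21) and MRAS are more distant members of the same subfamily, and ARAF and BRAF are 2 of the RAF kinases. Oncogenic forms of RAS hydrolyse GTP poorly and stay active.

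Whether reads of one paralog could be counted for another was examined on the reference transcripts (GENCODE 44 on GRCh37, the build the authors aligned to, named hg19 by them). The longest identical run between the coding sequence of HRAS and that of another of these paralogs was 17 bases (MRAS), with 15 for RRAS, 14 for NRAS and 11 for RRAS2. ARAF and BRAF shared at most 21 bases and RRAS and RRAS2 at most 23. A read of 31 bases or more therefore could not match the coding sequence of 2 of these genes exactly. Pseudogenes were a different case: 56.8% of the 31-base words of the RRAS2 coding sequence also occur in RRAS2P1, which was listed at 0.629 to 1.55 FPKM, and 18.5% of those of BRAF occur in BRAFP1, listed at no more than 0.0505 FPKM. How the authors' counting divided such reads is not given in the sources used here, so the RRAS2 and BRAF values carry that uncertainty. NF1 carries it to a lesser extent by shared sequence: each related gene held at most 4.68% of its 31-base words, those with a value were listed at no more than 0.0687 FPKM, and others have no value here.

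In control cells HRAS (chr11:532242-537321, minus strand, GRCh37) was at 1174 FPKM, 1176 FPKM and 1140 FPKM in libraries 1 to 3, and in induced cells at 1439 FPKM, 1847 FPKM and 1473 FPKM. All 3 induced libraries lay above all 3 controls, and the second induced library was the highest. The controls were close together, with a coefficient of variation of 1.74%, against 14.3% in induced cells. The ratio of the means was 1.36, and the log2 fold change of FPKM + 1 was 0.44 ± 0.11 (SE; 95% interval 0.17 to 0.70; limma, adjusted p = 0.0431). Over all genes tested the median log2 fold change was 0.10, so HRAS stood 0.34 above it. Counted with any reads of the construct, which the control cells also carried, HRAS was already among the most abundant mRNAs there. HRAS ranked 21, 24 and 25 of all genes in the 3 control libraries and 14, 10 and 15 in the induced ones. It made up 0.204% to 0.206% of all FPKM in control and 0.247% to 0.296% in induced cells.

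The HRAS call was close to the threshold. It was lost when any library other than the second induced one was left out (adjusted p = 0.0587 to 0.124) and held without that library, at a log2 fold change of 0.32 (adjusted p = 0.0452). It held after quantile normalization (0.36, adjusted p = 0.0193) and was lost after upper-quartile scaling (0.33, adjusted p = 0.0925).

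Of the 8 genes, 2 passed the adjusted threshold of 0.05, against 16.7% of all genes tested (2336 of 13993). One, HRAS, was higher, as were 11.0% of all genes (1543), and the other, RRAS2, was lower, as were 5.67% (793). After quantile normalization the calls over all genes split into 1044 higher and 1109 lower, and after upper-quartile scaling into 921 and 1101, with the median log2 fold change at 0.01 and 0.00467. Induced and control values did not overlap for 3 of the 8: HRAS was higher in all 3 induced libraries, as were 27.1% of all genes (3789), and RRAS and RRAS2 were lower in all 3, as were 12.8% (1788).

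NRAS (chr1:115247090-115259392, minus strand), whose protein is the closest relative of HRAS among the paralogs examined and is often mutated in melanoma, was at 68.9 FPKM, 65.3 FPKM and 53.7 FPKM in control and at 69.1 FPKM, 66.0 FPKM and 66.5 FPKM in induced cells. The groups overlapped, with the third control the lowest of the 6. The means were 62.6 ± 7.91 FPKM and 67.2 ± 1.66 FPKM, and the log2 fold change was 0.11, with a 95% interval of -0.14 to 0.36 (limma, adjusted p = 0.506). That interval leaves room for a change in either direction, and the estimate was -0.000644 after upper-quartile scaling.

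RRAS (chr19:50138549-50143400, minus strand), which encodes a GTPase linked to integrin-dependent adhesion, was at 77.3 FPKM, 70.9 FPKM and 54.8 FPKM in control and at 49.9 FPKM, 52.8 FPKM and 46.8 FPKM in induced cells. Every induced library lay under every control, although the third control was only just above the highest induced library. The log2 fold change was -0.42 (95% interval -0.74 to -0.10) and did not pass the test (limma, adjusted p = 0.0794). Without the third control it did, at -0.56 (adjusted p = 0.0162), as it did after quantile normalization (-0.51, adjusted p = 0.0359) and after upper-quartile scaling (-0.53, adjusted p = 0.0324).

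RRAS2 (chr11:14299468-14386052, minus strand) encodes a GTPase that, when mutated at positions equivalent to those of HRAS, can transform cells. Its levels were 52.5 FPKM, 43.9 FPKM and 35.9 FPKM in control and 30.5 FPKM, 26.4 FPKM and 30.0 FPKM in induced cells. All 3 induced libraries were under all 3 controls. RRAS2 fell, with a ratio of means of 0.657 and a log2 fold change of -0.58 ± 0.14 (SE; 95% interval -0.92 to -0.23; limma, adjusted p = 0.0411). The call was lost when any library but the third control was left out (adjusted p = 0.0879 to 0.110), and stood at -0.71 (adjusted p = 0.0179) without that control. It held after quantile normalization (adjusted p = 0.0186) and upper-quartile scaling (adjusted p = 0.0206). Among the files' genes a second entry with the symbol RRAS2 was at 0 in all 6 libraries and was not used.

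MRAS (chr3:138066490-138124376, plus strand), whose protein forms a phosphatase complex with SHOC2 that acts on RAF, was at 39.7 FPKM, 33.3 FPKM and 17.9 FPKM in control and at 23.8 FPKM, 21.1 FPKM and 18.5 FPKM in induced cells. The third control was the lowest of all 6 libraries, so the groups overlapped, and the controls varied by 36.9% of their mean. The log2 fold change was -0.44 with a wide 95% interval, -1.11 to 0.23 (limma, adjusted p = 0.32). Without the third control it was -0.77 (adjusted p = 0.0235), so for MRAS that 1 library set the side of the threshold. The third control was also the lowest of the controls for HRAS, NRAS, RRAS, RRAS2 and ARAF.

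**Figure D1:**
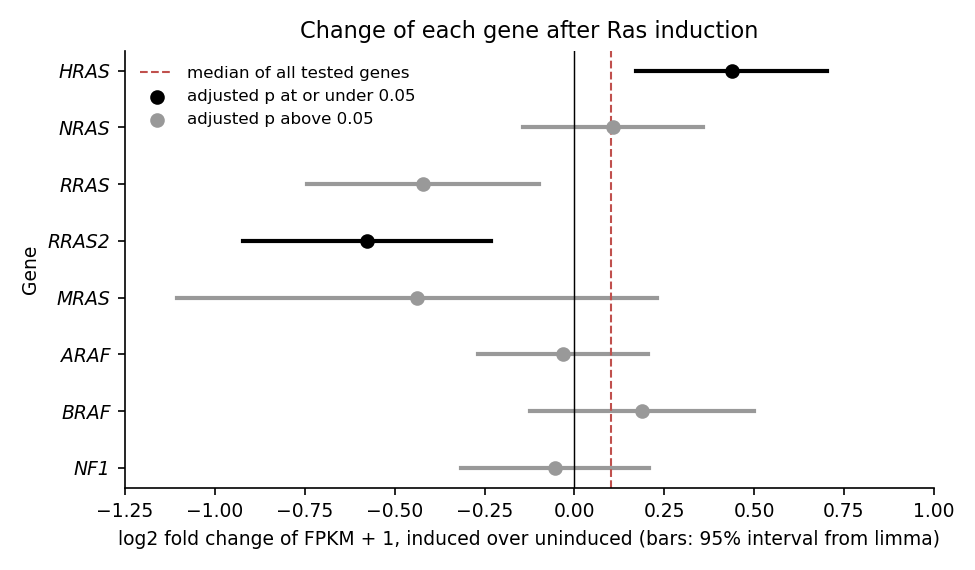
Log2 fold change of FPKM + 1, induced over uninduced, for each gene, with 95% intervals from limma (3 libraries each). HRAS (0.44) and RRAS2 (-0.58), in black, passed the adjusted threshold of 0.05, and the dashed red line marks the median of all genes tested, 0.10.

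To compare HRAS with its paralogs independently of any single scaling factor per library, the ratio of FPKM was taken within each library. HRAS over RRAS2 was 22.4, 26.8 and 31.7 in control and 47.2, 70.0 and 49.1 in induced cells, a mean of 27.0 ± 4.68 against 55.4 ± 12.6. HRAS over RRAS was 15.2, 16.6 and 20.8 in control and 28.8, 35.0 and 31.4 in induced cells, a mean of 17.5 ± 2.92 against 31.7 ± 3.09. For both pairs every induced library lay above every control. The log2 difference, taken on FPKM + 1, was 1.01 for RRAS2 and 0.86 for RRAS, and each gave p = 0.1 in a two-sided exact permutation test, the smallest that 3 libraries against 3 allow (adjusted p = 0.2 over the 4 pairs). Because HRAS was higher and both paralogs lower in every induced library, the groups had to separate in these ratios. That p therefore adds nothing to the separations given above.

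The other 2 pairs overlapped. HRAS over NRAS was 17.1, 18.02 and 21.2 in control and 20.8, 28.0 and 22.1 in induced cells (log2 difference 0.33, exact permutation p = 0.2, adjusted p = 0.2). HRAS over MRAS was 29.6, 35.3 and 63.6 in control and 60.5, 87.7 and 79.8 in induced cells (log2 difference 0.88, exact permutation p = 0.2, adjusted p = 0.2). After quantile normalization, which does not scale a library by a single factor, both pairs gave exact permutation p = 0.1, without adjustment. The log2 differences were then 0.34 for NRAS and 0.89 for MRAS. The third control had the highest ratio of the controls for all 4 paralogs, and the second induced library the highest of the induced ones.

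**Figure D2:**
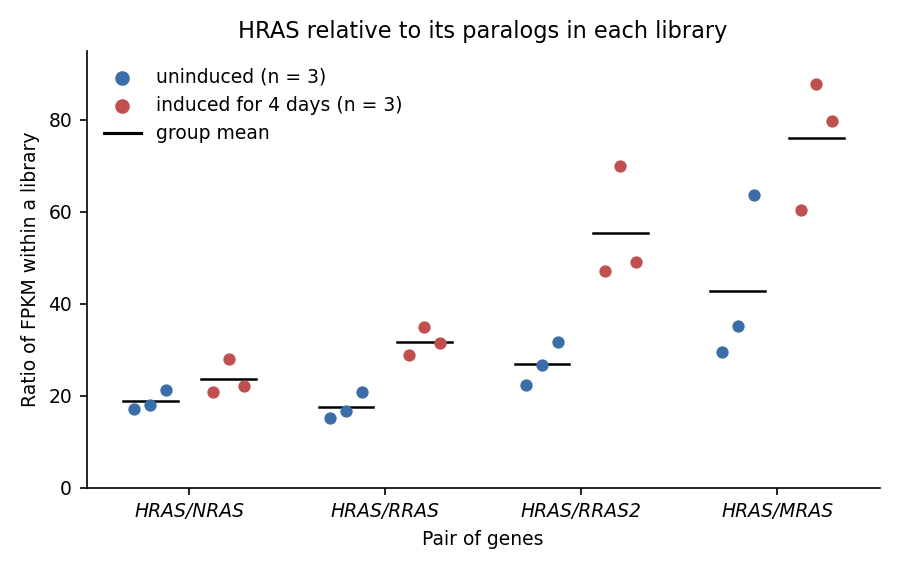
Ratio of HRAS FPKM to that of each paralog within a library, on a linear axis, with blue points for uninduced and red for induced libraries and black lines for group means. Induced libraries lie above controls for RRAS and RRAS2, and 1 induced library falls within the control range for NRAS and for MRAS.

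HRAS held 83.1%, 84.6% and 87.5% of the summed FPKM of the 5 RAS genes in control cells and 89.2%, 91.7% and 90.1% in induced cells, so the induced shares were all higher, by 5.26 percentage points on average (exact permutation p = 0.1, the smallest possible). The sum of all 5 was 1413 FPKM, 1390 FPKM and 1303 FPKM in control and 1612 FPKM, 2013 FPKM and 1634 FPKM in induced cells (p = 0.1, exact permutation). The 4 paralogs without HRAS summed to 204.7 ± 38.7 FPKM in control and 167.1 ± 5.85 FPKM in induced cells, with overlap between the groups (p = 0.3, exact permutation). The summed RAS message was thus mostly HRAS, counted with any reads of the construct, in both groups.

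The order of mean levels in control cells was HRAS, RRAS, NRAS, RRAS2, ARAF, MRAS, NF1 and BRAF. HRAS, any reads of the construct included, was 17.2 times as abundant per length as the next gene, RRAS. Neighbours whose control values overlapped were RRAS with NRAS, RRAS2 with ARAF, and ARAF with MRAS. In induced cells the order was HRAS, NRAS, RRAS, ARAF, RRAS2, MRAS, NF1 and BRAF, with HRAS 23.6 times the level of NRAS. There the ranges of ARAF and RRAS2 were the only neighbouring ones that overlapped, and NRAS lay above RRAS in every induced library.

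ARAF (chrX:47420604-47431307, plus strand) was the more abundant of the RAF kinases examined. It was at 36.7 FPKM, 33.4 FPKM and 30.6 FPKM in control and at 35.1 FPKM, 33.1 FPKM and 30.2 FPKM in induced cells. The groups overlapped almost entirely, and the log2 fold change was -0.03, with a 95% interval of -0.27 to 0.20 (limma, adjusted p = 0.853). SYN1, which overlaps ARAF on the other strand, was at 0.320 to 0.582 FPKM.

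BRAF (chr7:140419127-140624729, minus strand), the RAF kinase with the highest basal activity, had the lowest mRNA level of the 8 genes. It was at 6.78 FPKM, 5.87 FPKM and 6.48 FPKM in control and at 8.48 FPKM, 6.24 FPKM and 7.60 FPKM in induced cells. Only the second induced library fell within the control range, and the log2 fold change was 0.19 (95% interval -0.12 to 0.50; limma, adjusted p = 0.362). NDUFB2, a gene of mitochondrial complex I that overlaps BRAF on the other strand, was at 82.3 to 116.5 FPKM, and whether counting used the strand is not stated, so its part in the BRAF value was not tested.

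ARAF over BRAF was 5.41, 5.69 and 4.73 in control and 4.14, 5.31 and 3.97 in induced cells. The ranges overlapped through the second induced library (log2 difference -0.22, exact permutation p = 0.2). BRAF thus made up 14.9% to 17.5% of the summed FPKM of the pair in control and 15.9% to 20.1% in induced cells.

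NF1 (chr17:29421945-29709134, plus strand) opposes RAS by stimulating its GTPase activity. Its mRNA was at 10.6 FPKM, 11.8 FPKM and 11.6 FPKM in control and at 11.4 FPKM, 9.48 FPKM and 11.9 FPKM in induced cells. The lowest and the highest of the 6 values were both from induced libraries, and the log2 fold change was -0.05 with a 95% interval of -0.32 to 0.21 (limma, adjusted p = 0.762). EVI2A, EVI2B and OMG lie in an intron of NF1 on the other strand, and the highest value among them was 10.4 FPKM (EVI2B, induced).

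Across the 6 libraries RRAS, RRAS2 and MRAS moved together, with Pearson r of 0.92 for RRAS with RRAS2, 0.91 for RRAS with MRAS and 0.83 for RRAS2 with MRAS. Against HRAS the coefficients were -0.83 for RRAS2, -0.63 for NF1, -0.61 for RRAS, -0.43 for MRAS, -0.10 for ARAF, 0.20 for BRAF and 0.39 for NRAS. These describe 6 libraries in 2 groups that share each library's scaling, and the group difference enters each coefficient. The genes whose pattern was most like that of HRAS were TBC1D24, PWP1 and MNAT1, each with r = 0.994 over the 6 libraries. None of the 3 passed the test (log2 fold changes 0.41, 0.19 and 0.26; limma, adjusted p = 0.1, 0.127 and 0.094).

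The other part of the fusion is an estrogen receptor domain. Whether that domain is human or mouse is not given in the sources used here, so ESR1, the human gene, may not read the construct. ESR1 was at 1.77 FPKM, 1.499 FPKM and 1.54 FPKM in control and at 1.94 FPKM, 3.50 FPKM and 2.07 FPKM in induced cells. HRAS was at 1140 to 1847 FPKM over the same libraries. Whether any of the ESR1 value came from the construct was not tested. All induced libraries lay above all controls, with the second highest as it was for HRAS, but the log2 fold change of 0.40 did not pass the test (95% interval -0.09 to 0.90; limma, adjusted p = 0.224). Over the 6 libraries r between ESR1 and HRAS was 0.95, a description over points that share their scaling.

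The rest of the pathway was read from 10 lists of 92 genes, of which 72 were tested. Of these, 16 were called (22.2%), 10 higher and 6 lower in induced cells, against 16.7% of all genes (11.0% higher and 5.67% lower), and the median log2 fold change of the 72 was 0.15, against 0.10 for all genes. The 6 include PLCE1, which passed the filter on low values only through the controls, where it was high. The 20 that were not tested reached at most 1.71 FPKM in any library. By list, 0% of the tested exchange factors and 14-3-3 genes were called, and 9.09% of RAF scaffold, phosphatase and chaperone genes. The shares were 14.3% of GTPase-activating proteins, 16.7% of receptor adaptors, 22.2% of lipid processing genes and 25% of MEK and ERK genes. They were 27.3% of small GTPases, 33.3% of NF1 recruiting proteins and 60% of effectors. In lists this short, single genes set the share.

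Upstream of RAS, by limma none of 4 exchange factors was called (1 at an unadjusted p under 0.05), and of 6 receptor adaptors GAB2, a docking protein that recruits PI3K and SHP2, was lower, at 5.34 ± 0.392 FPKM in control and 2.26 ± 0.627 FPKM in induced cells (log2 fold change -0.98, limma, adjusted p = 0.0134). That call was lost without the first or the second control. Among 7 GTPase-activating proteins other than NF1, RASA1 was lower, at 86.0 FPKM, 81.3 FPKM and 73.2 FPKM in control and 63.0 FPKM, 60.7 FPKM and 56.8 FPKM in induced cells. RASA1 encodes p120 RasGAP, and its log2 fold change was -0.41 (limma, adjusted p = 0.0265). This call was lost without any 1 library other than the third control.

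Of 3 genes for proteins that recruit NF1 to the membrane, SPRED2 was higher. It was at 6.03 FPKM, 4.596 FPKM and 5.25 FPKM in control and 15.2 FPKM, 13.5 FPKM and 15.8 FPKM in induced cells, a log2 fold change of 1.33 ± 0.12 (SE; limma, adjusted p = 0.00242) that passed under all 13 alternatives. NF1 itself, whose interval is given above, showed no such separation.

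Among 11 other small GTPases of the RAS subfamily, DIRAS3 and RALB were higher and DIRAS1 lower. DIRAS3, which encodes a GTPase that restrains growth, was at 1.62 FPKM, 5.9996 FPKM and 3.96 FPKM in control and 14.8 FPKM, 47.9 FPKM and 27.0 FPKM in induced cells (log2 fold change 2.63, limma, adjusted p = 0.0169). RALB, a relative acting downstream of RAS through RAL exchange factors, had means of 69.5 FPKM and 93.9 FPKM (0.44, adjusted p = 0.0381). DIRAS1 had means of 4.87 FPKM and 2.53 FPKM (-0.74, adjusted p = 0.0255). Without any 1 library, the third control excepted, RALB lost its call, as DIRAS1 did without any but the second induced library. The RALB call was also lost after upper-quartile scaling. RHEB, whose protein activates mTORC1, had a log2 fold change of -0.48 (adjusted p = 0.0594) and was called lower after both scalings. The count of 3 in this list fell to 0 with no filter on low values and without the third induced library, and to 1 without the first or second control or the first induced library.

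RAS and several of its relatives are anchored in membranes by lipids. Of 9 genes for their lipid processing and trafficking, LYPLA1 and ZDHHC9 were higher. LYPLA1, which encodes a thioesterase that removes palmitate from RAS, was at 40.1 ± 0.385 FPKM in control and 63.7 ± 7.04 FPKM in induced cells (log2 fold change 0.65, limma, adjusted p = 0.00825). ZDHHC9, part of the enzyme that adds palmitate to HRAS and NRAS, was at 14.7 ± 0.137 FPKM and 18.9 ± 0.768 FPKM (0.34, adjusted p = 0.0284). LYPLA1 passed under all 13 alternatives, whereas ZDHHC9 did so under 6 and was lost, among others, without the first control, the second control, the first induced library or the third induced library, and after either scaling.

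Around RAF, 1 of 11 scaffold, phosphatase and chaperone genes and none of 7 genes for 14-3-3 proteins, which bind phosphorylated RAF, was called by limma (2 of the 7 at an unadjusted p under 0.05). The count for 14-3-3 genes was 1 in 6 of the 13 alternatives, among them both scalings, after each of which YWHAH (log2 fold change -0.44, adjusted p = 0.0547 without them) was called lower. The former was KSR1, a scaffold that holds RAF, MEK and ERK together, at 6.01 FPKM, 6.67 FPKM and 3.98 FPKM in control and 2.68 FPKM, 2.86 FPKM and 2.61 FPKM in induced cells (log2 fold change -0.80, limma, adjusted p = 0.0315). The groups did not overlap. The KSR1 call was lost without either the first or second control or any 1 of the induced libraries.

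Of the MEK and ERK genes, MAP2K1 (MEK1) was higher, at 42.3 FPKM, 43.5 FPKM and 48.9 FPKM in control and 59.8 FPKM, 56.2 FPKM and 58.0 FPKM in induced cells (log2 fold change 0.36, limma, adjusted p = 0.0304). That call was lost after quantile normalization and after upper-quartile scaling, and without any 1 library but the third control. MAP2K2 (0.14, adjusted p = 0.277) and MAPK3 (0.35, adjusted p = 0.0694) did not pass.

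Of 10 RAS effector genes outside the RAF family that passed the filter on low values, 4 were higher and 2 lower, where 11.0% and 5.67% of all genes were. RGL1 (0.91, limma, adjusted p = 0.0051) and RGL2 (0.52, adjusted p = 0.0181), which encode exchange factors for RAL, were higher, as were RIN1 (0.77, adjusted p = 0.0219), an exchange factor for RAB5 GTPases, and PIK3CB (0.56, adjusted p = 0.0108). PIK3CB encodes a catalytic subunit of PI3K. A gene for another catalytic subunit, PIK3CD, was lower (-0.72, adjusted p = 0.0131). The other gene called lower was the phospholipase gene PLCE1, at 1.57 ± 0.205 FPKM in control and 0.463 ± 0.128 FPKM in induced cells. It passed the filter only through the controls, where it was high, and its call was lost without any 1 library (without a control it was under the filter). RIN1 lost its call without the first control, the second control, the second induced library or the third induced library, and RGL2 without the second control, the first induced library or the third induced library. After both scalings RASSF1 (-0.63, adjusted p = 0.0569 without them) was called lower as well. The count of 6 fell to 3 without the second control or the third induced library.

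**Figure D3:**
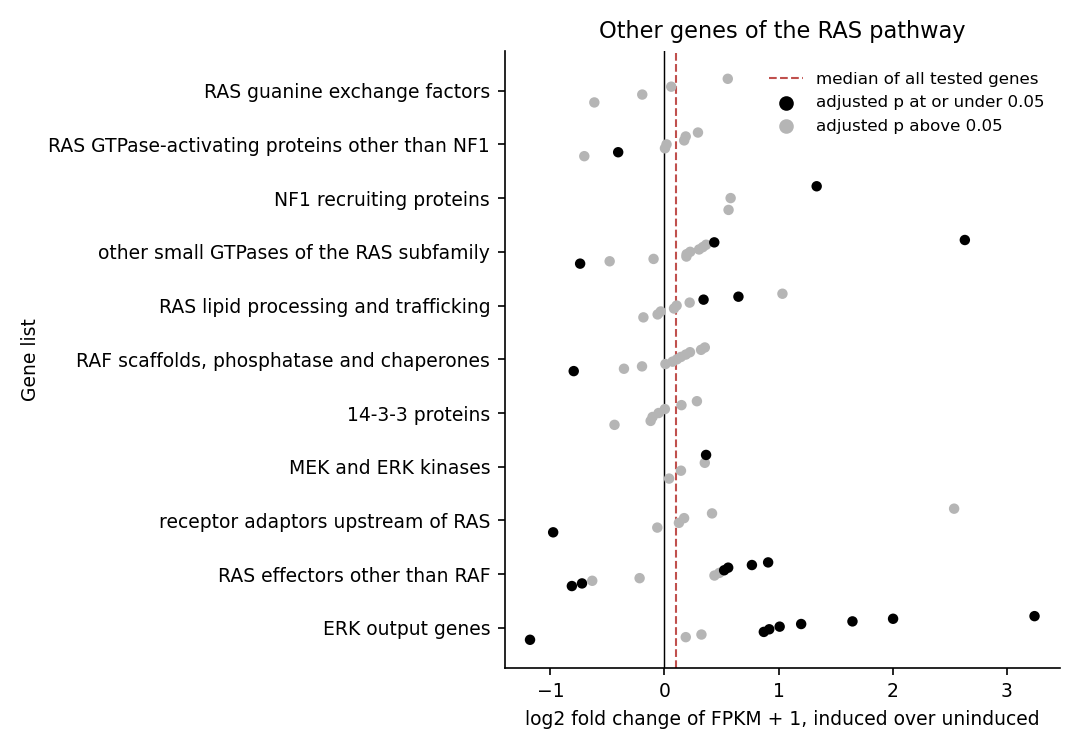
Log2 fold change of FPKM + 1, induced over uninduced, of each tested gene (1 point) in 11 lists, with black points for genes at or under the adjusted threshold of 0.05 and a dashed red line at the median of all genes tested, 0.10. Called points lie on both sides of 0 in the lists of effectors and of small GTPases, and the ERK output genes reach 3.24.

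The output of the cascade was read from 10 genes known to respond to ERK, of which 7 were higher and 1 lower, where 11.0% and 5.67% of all genes were. One of the 7, DUSP4, passed the filter on low values only through the induced libraries, at 0.225 ± 0.0930 FPKM in control and 2.86 ± 0.528 FPKM in induced cells. DUSP6, a phosphatase that inactivates ERK, was at 3.31 FPKM, 1.92 FPKM and 2.23 FPKM in control and 39.8 FPKM, 21.2 FPKM and 37.2 FPKM in induced cells (log2 fold change 3.24, limma, adjusted p = 0.00198). FOSL1, which encodes an AP-1 subunit, was the gene that was lower, at 271 ± 28.5 FPKM and 120 ± 15.7 FPKM (-1.18, adjusted p = 0.00366). The count of 8 was 7 after quantile normalization, which lost SPRY4 (1.01, adjusted p = 0.0467 without it), and 6 after upper-quartile scaling, which lost SPRY4 and DUSP5 (0.92, adjusted p = 0.0339 without it). SPRY4 and DUSP5 each kept the call in 2 of the 6 fits with 1 library left out.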

How the data were processed

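Messenger RNA of 6 libraries, 3 per group, had been sequenced from mitotic IMR90 ERRAS cells. Per the methods and the submitters' processing notes, the authors trimmed reads with Trim Galore 0.3.0, aligned them to hg19 with TopHat2 and computed FPKM per gene and library with Cufflinks and Cuffdiff. Versions of the latter tools and use of strand are not given in the sources used here. The deposited FPKM table was used. A deposited table of the authors' own comparison (group values, fold changes and tests) was not. From 63129 gene rows, 120 with more than 6 values were left out, and 1 repeated header row and 18 unnamed columns were not used. Columns number the libraries 1 to 3 within a group but do not name the sample. The study states that the experiment was independently repeated 3 times, but which control and induced libraries share a repeat is not given. Beyond that, p-values measure the spread between these libraries. The deposited files used here hold no read counts, and the study's alignment statistics were not used. From the steps between low values, depth relative to the first control was 0.953 and 1.17 in the other controls and 1.13, 0.847 and 0.973 in the induced libraries.

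Log2 values of FPKM + 1 were fitted with limma 3.58.1 for every gene averaging 1 FPKM or more (R 4.3.3, trended moderation, both groups, Benjamini-Hochberg adjustment over 13993 genes, threshold 0.05). Fold changes on this scale understate those of low genes. The fit was tested on simulated data. Ratios and sums were compared with two-sided exact permutation tests (numpy 2.4.6), and p-values of the HRAS ratios were adjusted with scipy 1.17.1. Alternatives were a pseudocount of 0.1, a filter at 5 FPKM or none, quantile and upper-quartile scaling, no trend, a replicate block and leaving out each library, and after the data were seen, ratios with no pseudocount. All 8 genes, called pathway genes and the 3 genes most correlated with HRAS were named. Members and lists were chosen with earlier results of these data known. The sequences of the genes and some genes of the pathway are not reported here.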

Additional observations from a re-analysis of the deposited data

How the results depend on the processing

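The number of genes called was 2336 of 13993 genes, 1518 with no filter on low values (29362 genes tested) and 998 to 1956 with 1 library left out. The HRAS log2 fold change of 0.44 lost its call with no filter (0.44, adjusted p = 0.166), upper-quartile scaling (0.33), no trend (0.44, adjusted p = 0.0612) and the replicate block (0.44, adjusted p = 0.0526), and was 0.32 to 0.50 with 1 library left out. RRAS2 (-0.58) lost its call with no filter (-0.58, adjusted p = 0.0956) and no trend (-0.58, adjusted p = 0.0581), and was -0.71 to -0.45 with 1 library left out. RRAS passed after quantile normalization (-0.51) and upper-quartile scaling (-0.53), and was -0.56 to -0.32 with 1 library left out. MRAS was -0.77 to -0.21 with 1 library left out. The sign turned for NRAS under upper-quartile scaling (-0.000644), and with 1 library left out for ARAF (-0.0942 to 0.0327, with 0.0327 without the first control and 0.0247 without the third induced library) and NF1 (-0.11 to 0.0361, the latter without the second induced library). None of these 4 estimates passed the test. For all of these the cause was not tested. The count of 16 called pathway genes was 6 to 18 with 1 library left out. The number of called ERK output genes, 8, was 7 after quantile normalization, with no trend and with a filter at 5 FPKM, 6 after upper-quartile scaling and with no filter, and 6 to 8 with 1 library left out. Log2 differences of the ratios kept their direction in all 10 alternatives each: 0.20 to 0.42 for HRAS over NRAS, 0.76 to 0.98 over RRAS, 0.84 to 1.14 over RRAS2 and 0.66 to 1.19 over MRAS, and -0.33 to -0.14 for ARAF over BRAF.

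Deviations from the group means correlated at -0.00266, 0.0433 and 0.0481 between libraries with the same number. Between libraries with different numbers the correlations were -0.0679 to 0.0311. Values this small cannot settle whether the numbers pair the libraries, and the main fit did not pair them. Precision is limited by 3 libraries per group and by the lack of read counts in the files used here.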

Other observations

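LRRC56, a gene that starts 205 bases from HRAS on the other strand, was at 0.216 FPKM, 0.202 FPKM and 0.166 FPKM in control and 1.19 FPKM, 1.07 FPKM and 0.653 FPKM in induced cells. Its mean was under the filter, so it was not tested, and it was picked after its values were seen. SHC1, a receptor adaptor that passes signals to RAS, was listed at 0 in the second control, against 129.4 FPKM and 108.6 FPKM in the other controls and 128.0 to 148.1 FPKM in induced cells. It was also picked after its values were seen.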
